A study of Mus musculus with 4 samples.

Results

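The genes described here are *Dusp1*, *Dusp2*, *Dusp4*, *Dusp5*, *Dusp6* and *Dusp10*, which encode dual-specificity phosphatases that act on MAP kinases. They were taken by symbol from a table of 13265 genes in 5080 cells, and all 6 were present. MAP kinases are switched on when a kinase phosphorylates a threonine and a tyrosine in their activation loop, and these phosphatases remove both phosphates. Several of them are transcribed within minutes of MAP kinase activation, so that they form a negative feedback loop, and in T cells they are known as genes of the early response to antigen receptor stimulation. DUSP1, DUSP2, DUSP4 and DUSP5 act in the nucleus, DUSP6 holds ERK in the cytoplasm, and DUSP10 prefers the stress-activated kinases JNK and p38.

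Small intestinal T cells that were positive for YFP and CD4 were sorted from C57BL/6 mice aged 7 to 8 months and profiled by droplet-based single-cell RNA sequencing. All mice carried *Il17a-cre* and a *Rosa26-stop*-fl/fl-*yfp* reporter, so YFP marked cells that had expressed *Il17a* at any time, whether or not they still did. TGFβR-KO mice also carried floxed alleles of *Tgfbr2*, TGFβR-CA mice a constitutively active form of *Tgfbr1* behind a stop-lox cassette, and TGFβR-WT mice were littermates without these receptor alleles. The *Il17a* promoter drives Cre in every lineage that expresses *Il17a*, which includes some unconventional T cells. There was 1 sample of TGFβR-KO (2975 cells), 1 of TGFβR-CA (1098 cells) and 2 of TGFβR-WT (1007 cells together), each a pool of mice. The methods describe separate sequencing batches for the mutants, each run beside TGFβR-WT cells, so batch and the difference between TGFβR-KO and TGFβR-CA cannot be told apart.

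TGFβR-WT cells are not tied to their 2 samples in the table. They are given pooled and as the sets that the endings of their names form, a larger set of 709 cells and a smaller set of 298. These sets stand in for the spread between TGFβR-WT samples, and no test between conditions was possible. By the methods, TGFβR-WT cells were in each batch, but which set came from which batch is not stated. The spread between the sets may thus include batch, and a ratio to a set may compare cells of different batches. Levels are corrected unique molecular identifiers (UMIs) per 10000, summed over the cells of a group, and a difference was called when the ratio was at least 1.5 in one direction against the pooled TGFβR-WT cells and against each set of at least 20 cells. The 5 members other than *Dusp4* had at least 200 corrected UMIs in all, as did 7490 genes of the table. *Dusp4* had 165, so its ratios are given without a call.

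The median cell held 3794 corrected UMIs in TGFβR-KO, 3918 in TGFβR-CA and 3659 in TGFβR-WT. T cell markers were found in 99.9% to 100% of the cells of each condition, *Cd8a* in at most 0.202% and *Cd8b1* in at most 1.28%. Of the regulatory T cell markers, *Foxp3* was found in at most 2.09% of cells, while *Ikzf2* was found in 24.9% of TGFβR-KO, 58.7% of TGFβR-CA and 49.2% of TGFβR-WT cells. Any of 5 epithelial markers was found in 2.82% of TGFβR-KO, 8.47% of TGFβR-CA and 5.26% of TGFβR-WT cells. Of these markers, *Krt18* was found in 1.55%, 6.83% and 4.47%, and each of the others, *Epcam* among them, in at most 1.37%. *Kit*, the mast cell marker present in the table, was found in 3.63% of TGFβR-KO, 10.7% of TGFβR-CA and 9.73% of TGFβR-WT cells. Any B cell marker was found in at most 2.78% of the cells of a condition. Any macrophage or dendritic cell marker was found in at most 1.82%, and any γδ T cell marker in at most 0.894%. The part of cells with such markers in the results below was not tested. *Tgfbr2*, the gene deleted in TGFβR-KO, was at 1.48 in TGFβR-KO, 1.78 in TGFβR-CA and 1.73 in TGFβR-WT, which does not check the labels, since a tag at the end of the transcript can lie outside the deleted part. *Tgfbr1* was at 0.219 in TGFβR-KO, 0.792 in TGFβR-CA and 1.16 in TGFβR-WT, whose larger set was at 0.367 and whose smaller set was at 2.79. This gene, which the transgene encodes and which should be high in TGFβR-CA, thus went against that label when set beside the smaller set, and conditions are named here by the labels of the cells.

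On GRCm38, the assembly also called mm10, *Dusp1* lies at chr17:26505590-26562128 on the minus strand, *Dusp2* at chr2:127336159-127338376, *Dusp4* at chr8:34807297-34819894, *Dusp5* at chr19:53529109-53542431, *Dusp6* at chr10:99263231-99267489 and *Dusp10* at chr1:184013302-184075636, all on the plus strand. Because *Dusp1* and *Dusp5* had the highest levels among the members in TGFβR-KO and differed most in the clusters that held them, the sequence upstream of their RefSeq starts is shown, cut where an annotated exon of the gene begins. The *Dusp1* stretch is chr17:26508520-26508722, inside the span of a longer annotated transcript of the gene, and the *Dusp5* stretch is chr19:53528895-53529108, which an exon of the annotated gene *AC137853.2* overlaps. Capitals mark the cyclic AMP response element TGACGTCA, its core TGACG on either strand, and the CArG box, the site that serum response factor reads.
Dusp1: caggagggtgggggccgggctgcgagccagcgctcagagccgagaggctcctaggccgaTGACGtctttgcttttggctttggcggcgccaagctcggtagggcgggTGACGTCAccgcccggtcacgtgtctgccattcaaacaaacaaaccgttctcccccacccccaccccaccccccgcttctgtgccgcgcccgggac
Dusp5: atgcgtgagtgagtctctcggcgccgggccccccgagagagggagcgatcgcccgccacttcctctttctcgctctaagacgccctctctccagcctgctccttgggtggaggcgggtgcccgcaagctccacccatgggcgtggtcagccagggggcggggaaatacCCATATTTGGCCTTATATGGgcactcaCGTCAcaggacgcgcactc
The *Dusp1* stretch held the full element TGACGTCA, which overlaps a core on each strand, and a further core upstream of it. The *Dusp5* stretch held 2 adjoining CArG boxes and a core that is read as CGTCA on the printed strand. Among 32851 RefSeq promoter windows of 250 bases, 1.55% held TGACGTCA, 17.8% held TGACG, 1.47% held a CArG box and 0.0183% held at least 2 CArG boxes. The AP-1 site TGANTCA, present in 6.75% of windows, and the NF-κB site, present in 3.90%, matched none of the 5 members with a window, and the windows of *Dusp2*, *Dusp6* and *Dusp10* held none of the 5 motifs searched on both strands. These matches describe letters in a window and are not binding sites measured here.

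Over all cells, *Dusp5* was the member that was higher in TGFβR-KO, and none was lower. The level of *Dusp5*, a nuclear phosphatase specific for ERK, was 1.63 in TGFβR-KO, 0.214 in TGFβR-CA and 0.309 in TGFβR-WT, where the larger set was at 0.363 and the smaller at 0.198. TGFβR-KO thus lay above both TGFβR-WT sets, 5.27-fold over the pooled cells, 4.49-fold over the larger set and 8.24-fold over the smaller set. Of all genes tested, 2.94% were called higher and 5.43% lower in TGFβR-KO by the same rule. The median log2 ratio of all genes tested was -0.17, and that of the 6 members was 0.52. *Dusp5* was detected in 23.2% of TGFβR-KO cells (exact 95% interval 21.7 to 24.8%), 6.56% of TGFβR-CA cells (5.17 to 8.19%) and 8.94% of TGFβR-WT cells (7.25 to 10.9%). These intervals, here and elsewhere, cover counting error only.

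**Figure D1:**
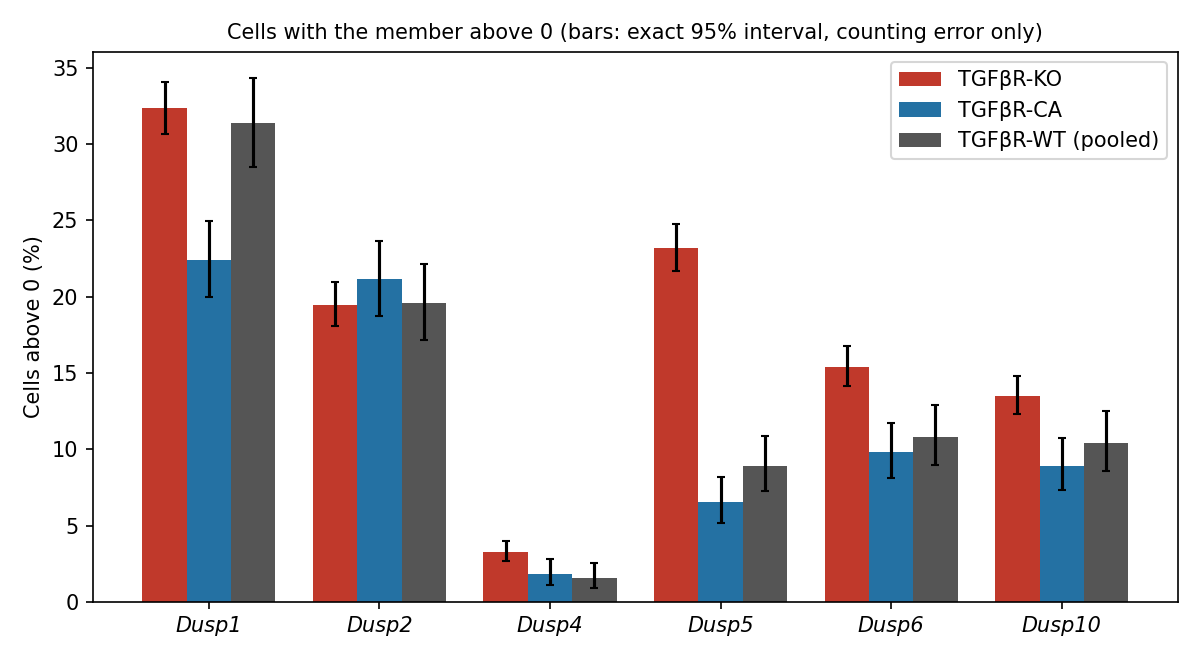
Share of cells in which each member was above 0, in percent, in TGFβR-KO, TGFβR-CA and pooled TGFβR-WT cells. Error bars are exact 95% intervals for counting error, and for *Dusp5* the TGFβR-KO bar stands at 23.2% against 6.56% and 8.94%.

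*Dusp4*, which encodes a nuclear phosphatase related to DUSP1, had few UMIs. It was at 0.108 in TGFβR-KO (124 corrected UMIs), 0.0570 in TGFβR-CA (25) and 0.0430 in TGFβR-WT (16, of which 2 were in the smaller set). The ratio of TGFβR-KO to TGFβR-WT was 2.51, with 1.93 against the larger set and a value of 6.55 against the smaller set that rests on those 2 UMIs.

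*Dusp6*, the cytoplasmic ERK phosphatase, was at 0.530 in TGFβR-KO, 0.317 in TGFβR-CA and 0.350 in TGFβR-WT, with 0.335 and 0.379 in the larger and smaller sets. TGFβR-KO lay above both sets, but the ratio of 1.40 against the smaller set missed the limit of 1.5. *Dusp10* was at 0.433 in TGFβR-KO, 0.251 in TGFβR-CA and 0.317 in TGFβR-WT (0.307 and 0.338), with a ratio of 1.36 for TGFβR-KO. *Dusp2*, first known from activated lymphocytes, was the most even member, at 0.790, 0.810 and 0.850, and its TGFβR-WT sets were at 0.826 and 0.898.

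*Dusp1*, the member with the highest level, was at 2.63 in TGFβR-KO, 1.81 in TGFβR-CA and 2.45 in TGFβR-WT. Its TGFβR-WT sets were at 1.74 and 3.94, so that TGFβR-KO was 1.52-fold above the larger set and at a ratio of 0.667 to the smaller one, and no direction can be given. The sets differed in the share of their cells in the cluster richest in *Dusp1*, cluster 8, which held 3.81% of the larger and 17.4% of the smaller set. Outside cluster 8 the sets were at 1.35 and 1.28, the larger one now slightly higher. This closeness leaned on few cells of the smaller set, with 24 UMIs in 3 cells of cluster 1 and 25 in 3 cells of cluster 2. In clusters 3, 4 and 7, with at least 20 cells in both sets, the larger set was at 1.47, 1.33 and 1.93. The smaller set was at 0.745, 0.729 and 1.06 there.

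In TGFβR-CA none of the 5 members was called higher or lower over all cells, against 1.23% and 2.74% of all genes tested. The ratios to pooled TGFβR-WT cells were 0.738 for *Dusp1*, 0.953 for *Dusp2*, 0.694 for *Dusp5*, 0.907 for *Dusp6* and 0.791 for *Dusp10*. For *Dusp1* and *Dusp5* the sets disagreed on the direction, with ratios of 1.04 and 0.460 for *Dusp1* and of 0.591 and 1.08 for *Dusp5*.

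The authors named 8 clusters of cells, numbered here as in their table of names: 1 Tumorigenic, 2 CTL, 3 GC-TFH, 4 TR-TFH, 5 Cycling, 6 Migratory, 7 Activated and 8 Pre-tumorigenic. Clusters 1 and 2 held 361 and 321 TGFβR-KO cells but 5 and 13 TGFβR-WT and 2 and 3 TGFβR-CA cells, so their levels can be read in TGFβR-KO only. The clusters were made from these same genes, and the study counts *Dusp1* among the genes that mark cluster 8, so differences between clusters are descriptions.

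The UMIs of the members were spread over the TGFβR-KO clusters in distinct ways. Clusters 1 and 8 held 19.9% of TGFβR-KO cells and 84.7% of the *Dusp4*, 79.5% of the *Dusp5*, 74.7% of the *Dusp1*, 42.7% of the *Dusp10*, 27.5% of the *Dusp2* and 18.4% of the *Dusp6* UMIs. *Dusp4*, *Dusp5* and *Dusp1* were thus mostly in these clusters, whereas the *Dusp6* share was near their joint share of cells. Elsewhere *Dusp6* did not follow the number of cells. The CTL cluster held 10.8% of TGFβR-KO cells and 18.4% of the *Dusp6* UMIs, and the TR-TFH cluster 17.4% and 6.41%. Against all other TGFβR-KO cells, *Dusp1*, *Dusp5* and *Dusp10* were past 1.5-fold in cluster 1, where 6.42% of all genes tested were, and *Dusp1*, *Dusp2*, *Dusp5* and *Dusp10* in cluster 8, where 5.02% were.

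**Figure D2:**
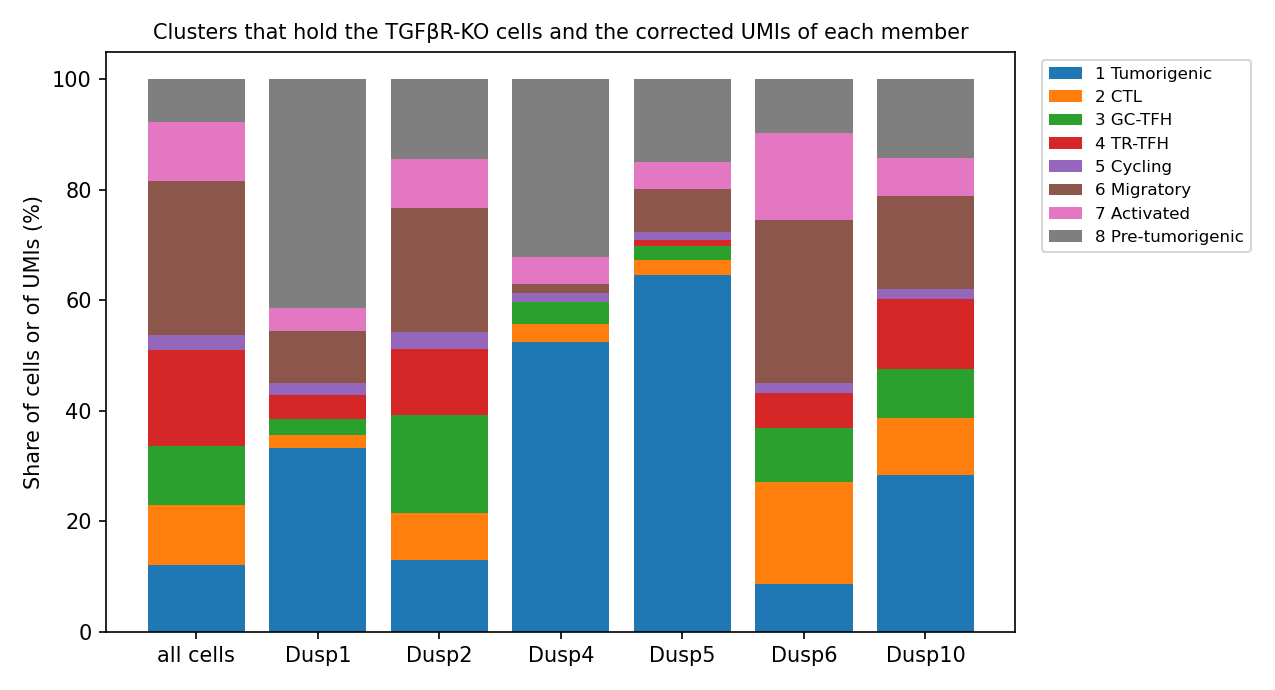
Stacked bars of the share, in percent, of all TGFβR-KO cells (first bar) and of the corrected UMIs of each member in TGFβR-KO cells that lie in each of the 8 clusters. Clusters 1 and 8 together take 19.9% of the cells but 79.5% of the *Dusp5* UMIs, of which 64.5% are in cluster 1.

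Within TGFβR-KO, cluster 1 was the *Dusp5* cluster and cluster 8 the *Dusp1* cluster. *Dusp5* was at 8.55 in cluster 1 and detected in 79.8% of its cells (75.3 to 83.8%), and at 3.23 in cluster 8, in 46.1% (39.5 to 52.8%). *Dusp1* was at 7.12 in cluster 1, in 70.1% of cells, and at 14.3 in cluster 8, in 87.0%. The order of these nuclear phosphatases was thus opposite in the 2 clusters. Of the tested members, *Dusp5* was past 1.5-fold higher in cluster 1 than in cluster 8, as were 11.0% of all genes tested, and *Dusp1*, *Dusp2* and *Dusp6* were past 1.5-fold lower, as were 13.4%. *Dusp4* was at 0.460 and 0.459 and *Dusp10* at 0.998 and 0.815 in clusters 1 and 8, with no such difference. In the other 6 clusters of TGFβR-KO, *Dusp1* lay between 0.587 (CTL) and 1.98 (Cycling) and *Dusp5* between 0.109 (TR-TFH) and 0.836 (Cycling).

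**Figure D3:**
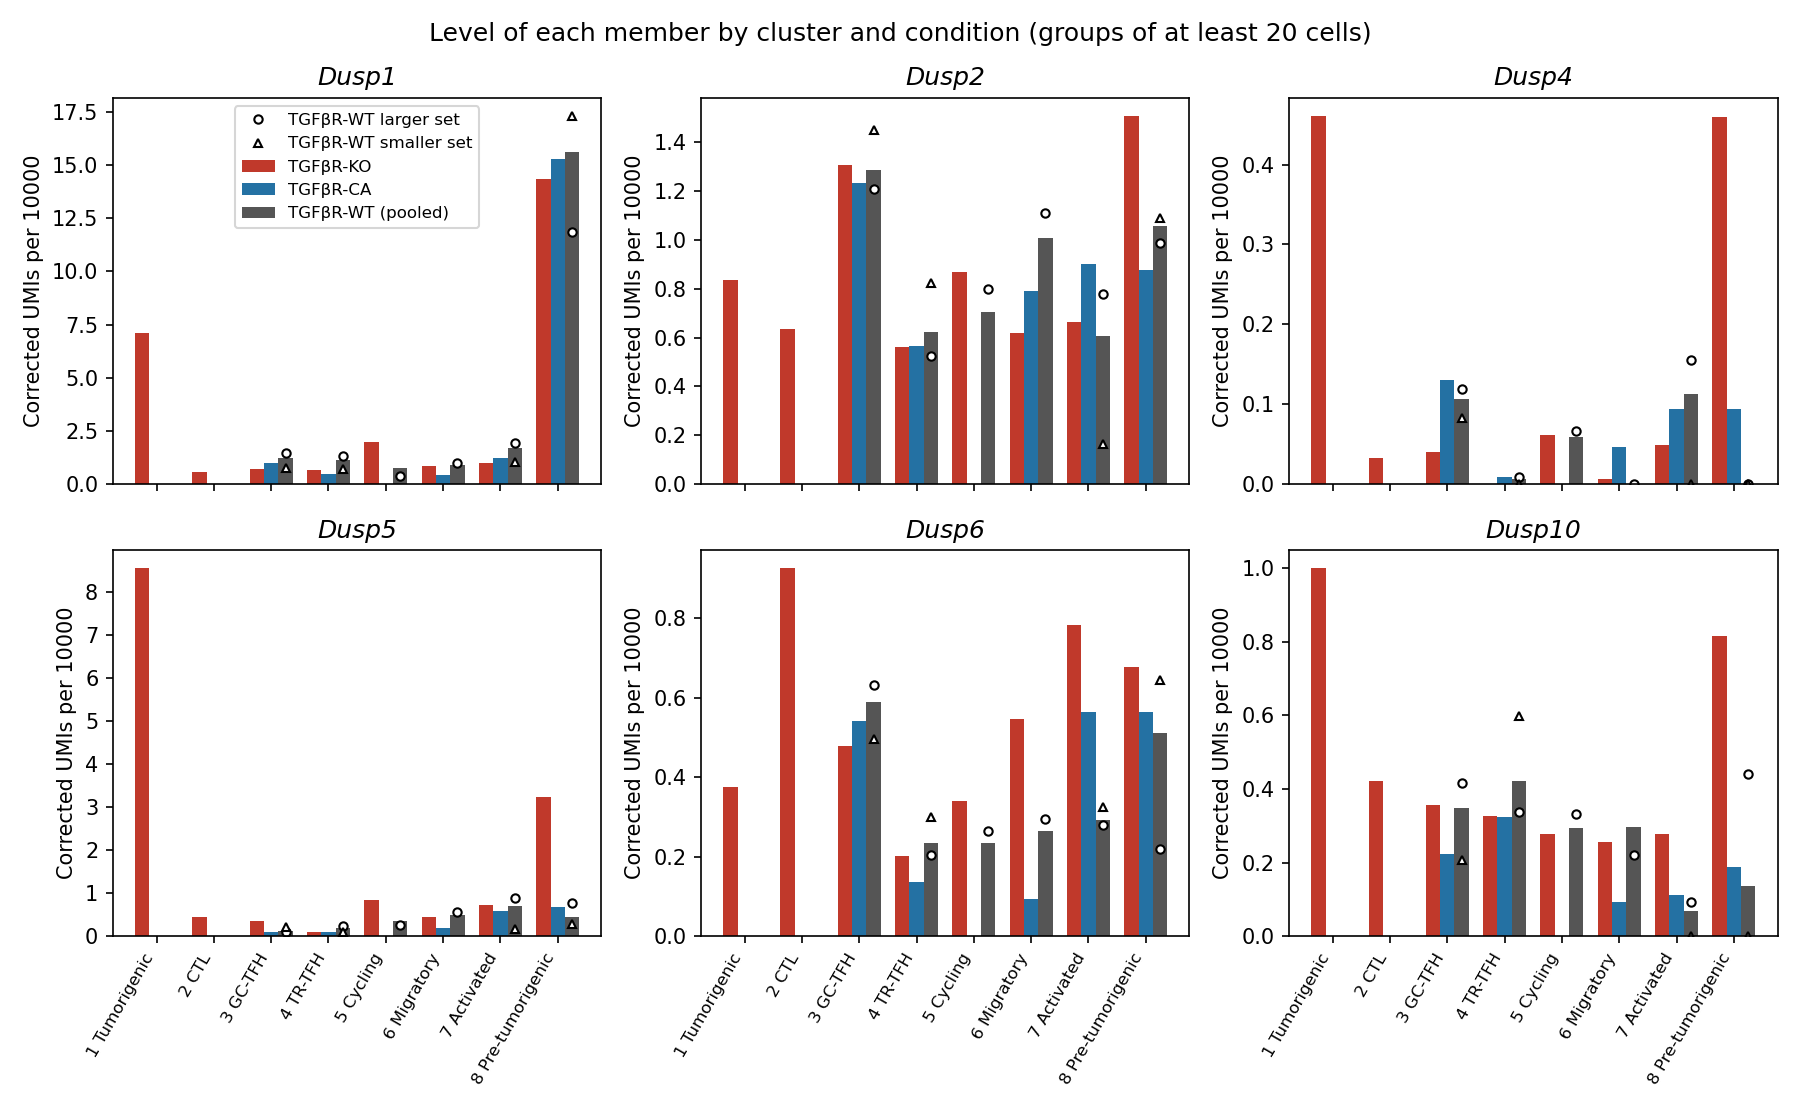
Level of each member, in corrected UMIs per 10000, by cluster. Bars are TGFβR-KO, TGFβR-CA and pooled TGFβR-WT cells, circles and triangles the larger and smaller TGFβR-WT sets, and groups under 20 cells are left out. *Dusp1* stands at 14.3 to 15.6 in cluster 8 of all 3 conditions, whereas *Dusp5* is at 3.23 in TGFβR-KO and at most 0.690 in the other 2.

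Cluster 8 was present in all 3 conditions, with 230 TGFβR-KO, 83 TGFβR-CA and 79 TGFβR-WT cells, and the members parted there. *Dusp1* was at 14.3 in TGFβR-KO, 15.3 in TGFβR-CA and 15.6 in TGFβR-WT, and the TGFβR-WT sets at 11.9 and 17.3 enclosed both other conditions. *Dusp5* was at 3.23 in TGFβR-KO, 0.690 in TGFβR-CA and 0.444 in TGFβR-WT (0.769 and 0.297). TGFβR-KO lay above both sets, 7.27-fold over pooled TGFβR-WT and 4.20-fold and 10.9-fold over the sets, on 281 UMIs in TGFβR-KO and 13 in TGFβR-WT. The share of cluster 8 cells with *Dusp5* was 46.1% in TGFβR-KO, 20.5% in TGFβR-CA (12.4 to 30.8%) and 12.7% in TGFβR-WT (6.24 to 22.0%).

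The p38- and JNK-directed member *Dusp10* also passed the limit in cluster 8, at 0.815 in TGFβR-KO (71 UMIs), 0.188 in TGFβR-CA (6) and 0.137 in TGFβR-WT (4). All 4 TGFβR-WT UMIs were in the larger set, at a ratio of 1.86, and the smaller set held 0, which allows up to 5.77% of its cells to have a UMI. Of all genes tested, 4.47% were called higher in cluster 8 of TGFβR-KO. *Dusp4* was at 0.459 (40 UMIs) in TGFβR-KO and 0.0940 (3 UMIs) in TGFβR-CA, and 0 of 79 TGFβR-WT cells had it, which allows a share of up to 3.80%. Taking 0 as 3 UMIs in each group, TGFβR-KO was at least 4.49-fold higher than the pooled cells, at least 1.39-fold higher than the larger set and at least 3.09-fold higher than the smaller set.

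*Dusp2* was at 1.5 in TGFβR-KO, 0.878 in TGFβR-CA and 1.06 in TGFβR-WT in cluster 8, with a ratio of 1.42 for TGFβR-KO. *Dusp6* was at 0.678, 0.564 and 0.512, but its TGFβR-WT sets, at 0.220 and 0.644, lay further apart than the conditions. In TGFβR-CA no tested member was called higher in cluster 8, against 5.61% of all genes. Single cells of TGFβR-KO held more members at once there, with at least 3 of the 6 in 32.2% of cells against 8.43% in TGFβR-CA and 5.06% in TGFβR-WT. The summed level of the 6 was 21.0, 17.7 and 17.8, of which *Dusp1* made up 68.2%, 86.4% and 87.9%. In cluster 1 of TGFβR-KO, 37.7% of cells held at least 3 members, the summed level was 18.3, and *Dusp5* made up 46.6% of it.

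Within these clusters of TGFβR-KO, the share of cells with one member was compared between cells with and without another, and the intervals overlapped for every pair. In cluster 1 of TGFβR-KO, *Dusp5* was detected in 79.1% of cells with *Dusp1* (73.5 to 83.9%) and 81.5% of cells without it (72.9 to 88.3%). In cluster 8 the shares were 48.0% (40.9 to 55.2%) and 33.3% (17.3 to 52.8%).

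The other clusters were compared between conditions one by one. *Dusp6* was higher in the Activated cluster of both mutants, at 0.785 in TGFβR-KO and 0.563 in TGFβR-CA against 0.292 in TGFβR-WT, whose sets were at 0.280 and 0.325. The ratios were 2.68 (2.80 and 2.41) for TGFβR-KO, where 3.52% of all genes were called higher, and 1.93 (2.01 and 1.73) for TGFβR-CA, where 4.23% were. These comparisons share the 13 TGFβR-WT UMIs of *Dusp6* in this cluster. In the Migratory cluster *Dusp6* was at 0.546 in TGFβR-KO and 0.266 in TGFβR-WT, a ratio of 2.05, and only the larger set had 20 cells or more, at a ratio of 1.85. There 7.02% of all genes were called higher and 13.7% lower, the latter including *Dusp2* at 0.619 against 1.01 (ratio 0.615). In TGFβR-CA, 4 of the 5 tested members were called lower in the Migratory cluster, but so were 20.9% of all genes, with 52 TGFβR-CA cells and again the larger set alone. *Dusp1* was at 0.419 against 0.887 (9 and 30 UMIs), *Dusp5* at 0.186 against 0.503 (4 and 17), *Dusp6* at 0.0932 against 0.266 (2 and 9) and *Dusp10* at 0.0932 against 0.296 (2 and 10). *Dusp6* was thus called in opposite directions in the mutants there, on 2 UMIs in TGFβR-CA, and the difference between the mutants was not tested. The highest *Dusp6* level in TGFβR-KO was in the CTL cluster, the cells named for cytotoxicity, at 0.926, with no TGFβR-WT or TGFβR-CA group large enough beside it.

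In the GC-TFH cluster *Dusp5* was at 0.365 in TGFβR-KO and 0.134 in TGFβR-WT, 2.73-fold (3.69-fold and 1.77-fold over the sets) on 45 against 10 UMIs, where 3.34% of all genes were called higher. In the Cycling cluster *Dusp1* (1.98 against 0.764) and *Dusp5* (0.836 against 0.352) passed the limit in TGFβR-KO, but so did 20.3% of all genes, with 45 TGFβR-WT cells. *Dusp5* in TGFβR-KO was not called against TGFβR-WT in the Migratory (0.448 in TGFβR-KO, 0.503 in TGFβR-WT), Activated (0.735 and 0.697) and TR-TFH (0.109 and 0.193) clusters.

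In the TR-TFH cluster *Dusp1* was lower in TGFβR-CA, at 0.476 against 1.13 in TGFβR-WT, whose sets were at 1.33 and 0.729, and 4.11% of all genes were called lower there. The ratio was 0.420 pooled and 0.358 and 0.653 against the sets. *Dusp1* in TGFβR-KO was at 0.685 in this cluster, just under the smaller set. *Dusp2* was at 1.31 in TGFβR-KO, 1.23 in TGFβR-CA and 1.29 in TGFβR-WT (1.21 and 1.45) in the GC-TFH cluster, with the conditions closer together than the TGFβR-WT sets. In the TR-TFH cluster it was at 0.560, 0.567 and 0.622, lower than in the GC-TFH cluster in every condition. *Dusp10* in the TR-TFH cluster was at 0.327, 0.325 and 0.422.

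The share of cells per cluster differed between conditions, so the comparison over all cells was repeated with the TGFβR-KO cluster levels weighted by the TGFβR-WT share of each cluster. The *Dusp5* ratio fell from 5.27 to 1.92, the *Dusp4* ratio from 2.51 to 1.31, the *Dusp6* ratio from 1.52 to 1.18 and the *Dusp10* ratio from 1.36 to 1.14. *Dusp1* went from 1.07 to 0.780 and *Dusp2* from 0.930 to 0.963. With the 5 clusters that had at least 20 cells in every condition weighted equally, the *Dusp5* ratio was 2.48. Fewer cells of a cluster and less RNA per cell are parted by these values only as far as the clusters are the same cells in every condition.

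**Figure D4:**
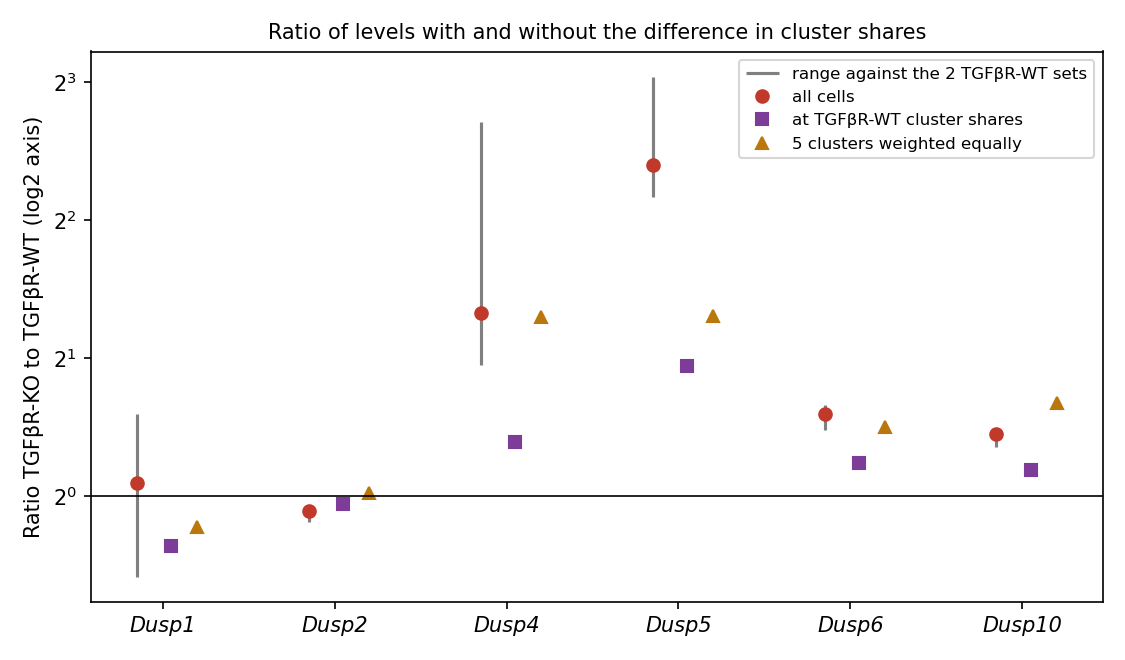
Ratio of the level of each member in TGFβR-KO to that in TGFβR-WT on a log2 axis, over all cells (circles, with lines from the ratio against one TGFβR-WT set to that against the other), at TGFβR-WT cluster shares (squares) and over 5 equally weighted clusters (triangles). *Dusp5* moves from 5.27 to 1.92 and 2.48, the last of which lies beside *Dusp4* at 2.46.

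Outside clusters 1 and 8, *Dusp6* was the tested member called higher in TGFβR-KO. These cells, left together after their values had been seen, had *Dusp6* at 0.539 in TGFβR-KO and 0.335 in TGFβR-WT (0.336 and 0.330). The ratio was 1.61, with 1.60 and 1.63 against the sets, where 2.51% of all genes were called higher. The cells left still differed in their cluster shares. By cluster, the pooled *Dusp6* ratio was 2.68 (Activated), 2.05 (Migratory), 1.45 (Cycling), 0.859 (TR-TFH) and 0.813 (GC-TFH). *Dusp5* was at 0.416 and 0.288 (0.341 and 0.160), a ratio of 1.45 that was not called. *Dusp1* was at 0.831 in TGFβR-KO, 0.705 in TGFβR-CA and 1.25 in TGFβR-WT (1.33 and 1.05), and no member was called lower in TGFβR-KO, against 5.09% of all genes.

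Genes induced by warm tissue digestion and by heat shock moved with *Dusp1*. The summed level of 20 such genes was 445 in TGFβR-KO, 241 in TGFβR-CA and 275 in TGFβR-WT in cluster 8, 195 in cluster 1 of TGFβR-KO, and between 37.4 and 78.4 in the other 15 groups of at least 20 cells. The 4 groups high for this list were the 4 groups high for *Dusp1*. In cluster 8 of TGFβR-KO the list was above both TGFβR-WT sets (258 and 282), as *Dusp5* was, while *Dusp1* was not. The part of tissue digestion in these levels was not tested, and since one sample stands for each mutant it cannot be told apart from the condition.

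**Figure D5:**
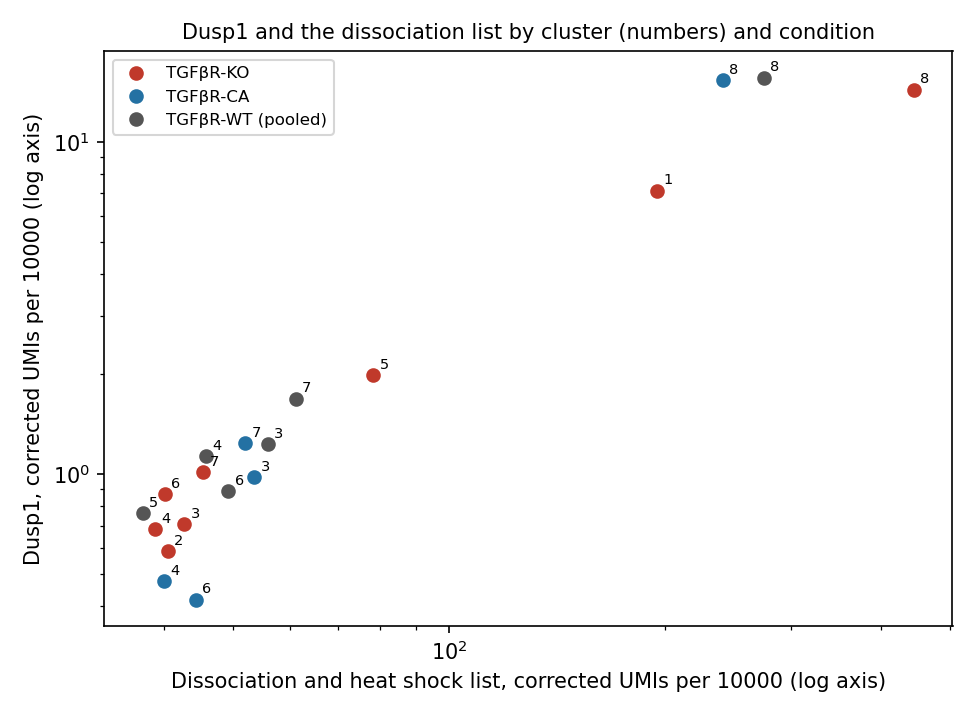
Level of *Dusp1* against the summed level of 20 dissociation and heat shock genes, both in corrected UMIs per 10000 on log axes, for the 19 groups of at least 20 cells, with the cluster number beside each point. The 3 cluster 8 points lie at 14.3 to 15.6 for *Dusp1* and 241 to 445 for the list, and cluster 1 of TGFβR-KO at 7.12 and 195.

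Across the same 19 groups, the genes whose log2 levels were most like those of each member were found by Pearson's r, as a description over groups that share libraries and depth. For *Dusp1* they were the AP-1 genes *Junb* (r = 0.96), *Fosb* (0.95) and *Fos* (0.95). For *Dusp5* they were *Ifrd1* (0.91), *Coq10b* (0.91) and *Bcl2l1* (0.91), the last of which encodes the survival protein BCL-XL. These 3 did not hold with groups of at least 50 cells, where *Pim1* (0.92), *Fosl2* (0.92) and *Got1* (0.92) were most like *Dusp5*. By Spearman's rho, only *Bcl2l1* of them stayed among the 3 genes most like *Dusp5*. By Pearson's r over the 19 groups, *Dusp4* was most like *Areg* (0.94), which encodes the growth factor amphiregulin, *Tgif1* (0.92) and *Gadd45b* (0.86). Each r of *Dusp4* rests on few UMIs, 165 in all, with 65 in cluster 1 and 40 in cluster 8 of TGFβR-KO. The likeness was weaker for *Dusp2*, with *Tagap* (0.78), *Hsp90ab1* (0.76) and *Nfkbid* (0.74), for *Dusp6*, with *Jaml* (0.75), *Gbp2* (0.74) and *Gadd45g* (0.73), and for *Dusp10*, with the adenosine receptor gene *Adora2a* (0.84), *Herpud1* (0.79) and *Hilpda* (0.76). Among the members, r was highest between *Dusp4* and *Dusp5* (0.74) and between *Dusp1* and *Dusp5* (0.64), and the other pairs were between 0.19 and 0.52.

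Of 17 other dual-specificity phosphatase genes in the table, 6 were tested, of which none was higher and 1 was lower in TGFβR-KO. Of all genes tested, 2.94% were called higher and 5.43% lower. The one lower was *Ssh2*, whose product dephosphorylates cofilin and not MAP kinases, at 0.767 against 1.65. The 4 other genes with a *Dusp* symbol that were tested were *Dusp11* (2.27 in TGFβR-KO, 1.94 in TGFβR-CA and 1.99 in TGFβR-WT), *Dusp7* (0.451, 0.201 and 0.306), *Dusp12* (0.240, 0.244 and 0.255) and *Dusp23* (0.129, 0.132 and 0.159), and none was called.

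Among the MAP kinases and the kinases upstream of them, 1 of 23 tested genes was higher and none lower in TGFβR-KO, beside 2.94% and 5.43% of all genes tested. The gene called higher was *Map3k8*, which encodes the MEK kinase TPL2 that feeds ERK, at 0.623 against 0.207 (ratio 3.01, with 2.69 and 3.98 against the sets). The ratio was over all cells and was not weighted by cluster. The list's median log2 ratio of -0.17 equalled that of all genes. In cluster 8 of TGFβR-KO, *Map3k8* was at 1.30 against 0.273 and *Map2k1*, the gene of MEK1, at 0.586 against 0.307, while *Mapk8*, the gene of JNK1, and *Map2k2*, the gene of MEK2, were lower there, at 0.103 against 0.239 and 0.586 against 1.06. In these TGFβR-WT cells the *Dusp5* level of 0.444 was 13 UMIs, and all but *Map2k2* had fewer. In cluster 8 of TGFβR-KO, 2 of the 23 tested genes of the list were higher and 2 lower. The list's median log2 ratio there was -0.29 beside -0.16 for all genes. Of all genes tested, 4.47% were called higher in cluster 8, and the share called lower was not counted.

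Of 18 genes that activate or restrain Ras below the T cell receptor, none was higher and 2 were lower in TGFβR-KO, beside 5.43% lower among all genes tested, and the list's median log2 ratio was -0.20 beside -0.17 for all genes. *Rasa1*, a Ras GTPase-activating protein gene, was at 0.778 against 1.49, and *Dgkz*, whose product removes diacylglycerol, at 1.08 against 1.72. In TGFβR-CA *Plcg1*, which encodes a phospholipase that makes diacylglycerol, was higher, at 0.297 against 0.108, where 1.23% of all genes tested were called higher. Of the other feedback inhibitors of ERK, 2 of 7 in the table were tested and none was called over all cells. *Spred2* was higher in cluster 8 of TGFβR-KO, at 0.264 against 0.137. The other tested gene was not called there, and the median log2 ratio of the 2 was -0.52 beside -0.16 for all genes. A TGFβR-WT level of 0.137 in cluster 8 was 4 UMIs, as for *Dusp10*, and 4.47% of all genes tested were called higher there.

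Of 19 tested immediate early genes and MAP kinase targets, 4 were higher and 1 was lower in TGFβR-KO, beside 2.94% and 5.43% of all genes tested. The list's median log2 ratio was 0.17 beside -0.17 for all genes. *Nr4a1*, an early gene of antigen receptor signaling, was at 2.09 against 0.444 (4.71-fold), *Fosl2* at 0.493 against 0.140 (3.53-fold), *Fosb* at 0.699 against 0.341 (2.05-fold) and *Junb* at 18.2 against 9.04 (2.01-fold). These ratios were not weighted by cluster, and cluster 1 held 12.1% of TGFβR-KO but 0.497% of TGFβR-WT cells. *Elk3* was lower, at 1.44 against 2.38. In TGFβR-CA, *Fos* was lower, at 2.35 against 4.85, where 2.74% of all genes tested were called lower. Of 18 tested dissociation and heat shock genes, 5 were higher over all cells of TGFβR-KO, beside 2.94% of all genes tested. They were led by *Hspa1a* (8.61 against 2.51) and included *Fosb* and *Junb* of the list before. Within cluster 8, 8 were higher, beside 4.47% of all genes tested. In TGFβR-CA 1 of this list was higher, *Socs3*, a feedback inhibitor of cytokine signaling, at a ratio of 1.57, and 1 was lower, which was *Fos*. Of all genes tested, 1.23% were called higher and 2.74% lower in TGFβR-CA.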

How the data were processed

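RNA of single YFP+CD4+ T cells was measured in 4 samples, and mice were pooled in each. UMIs were counted by the authors with Cell Ranger (3.1.0 per the processing notes) on mm10. They kept cells with 1000 to 5000 genes and under 10% mitochondrial UMIs, normalized them with SCTransform, integrated and clustered them, and took out γδ T and epithelial cells. How doublets were treated is not given in the sources used here, and none were called here. Each deposited value is on a natural log scale, taken after 1 was added to the corrected UMI number. Undoing the log gave whole numbers within 1e-06. They are corrected to a common depth, so raw depth is unknown and no count model was run. Cells were grouped by the condition in their names, and clusters are the authors' own.

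A level is the corrected UMIs of a gene per 10000, summed over cells. Shares carry exact Clopper-Pearson 95% intervals, and a count of 0 was set to 3 counts for a bound, which could call a difference only in the direction it bounds. The cells were sorted as T cells, so no cell type without these genes gives a background for the shares. The limit given beside a share of 0 is 3 cells of the total, not the interval's upper end. Genes with at least 200 corrected UMIs were tested against the ratio of 1.5, and likeness was Pearson's r of log2 levels after 0.1 was added. The genes named are the 6 members, other *Dusp* genes with at least 200 UMIs, up to 3 called genes in each direction per list and the 3 genes most like each member. The same rule named genes within cluster 8. The members and lists were chosen with earlier results of these data known. In all, 16 barcodes occurred in more than 1 set. Positions are from GENCODE and promoter sequences from RefSeq on GRCm38.p6, found for 5 of the 6 members, without *Dusp4*. Alternatives left out cells, clusters, genes or a TGFβR-WT set, or changed weights, limits and pseudocounts. The steps were tested on simulated data. Python 3.11.15 with numpy, scipy, pandas and matplotlib was used.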

Additional observations from a re-analysis of the deposited data

How the results depend on the processing

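The log2 ratios to TGFβR-WT kept their value within the spread of the TGFβR-WT sets without shared barcodes, as means over cells and without mitochondrial and ribosomal genes. Against either TGFβR-WT set alone, the TGFβR-KO ratio ranged from -0.58 to 0.60 for *Dusp1*, 0.95 to 2.71 for *Dusp4* and 2.17 to 3.04 for *Dusp5*, and the TGFβR-CA ratio from 0.03 to 1.79 for *Dusp4* and -0.76 to 0.12 for *Dusp5*. *Dusp6* in the Activated cluster ranged from 1.27 to 1.49 in TGFβR-KO and 0.79 to 1.01 in TGFβR-CA, and *Dusp1* in the TR-TFH cluster of TGFβR-CA from -1.48 to -0.62. With equal cluster weights the TGFβR-KO ratio was 0.023 for *Dusp2*, 1.31 for *Dusp5* and 0.68 for *Dusp10*, and the TGFβR-CA ratio 0.0032 for *Dusp6*. Without cluster 8 that of *Dusp10* in TGFβR-KO was 0.27. Settings chosen after seeing the data gave, at TGFβR-WT cluster shares, 0.94 for *Dusp5*, 0.24 for *Dusp6* and 0.19 for *Dusp10*, and without clusters 1 and 8, -0.20 for *Dusp2*, 0.53 for *Dusp5*, -0.11 for *Dusp10* and, in the other direction than over all cells, -1.09 for *Dusp4*. Cells with at least 2 corrected UMIs made up 16.7% (*Dusp1*), 5.58% (*Dusp2*), 0.605% (*Dusp4*), 11.4% (*Dusp5*), 3.56% (*Dusp6*) and 2.05% (*Dusp10*) of TGFβR-KO. Of the 18 genes most like the members, 7 were found with Spearman's rho and 11 with groups of at least 50 cells.

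Counts of called genes moved most. Those higher in TGFβR-KO went from 220 to 400 with no minimum of UMIs, 140 with at least 500, 66 with a pseudocount of 0.5 and 106 at a ratio of 2, and those lower from 407 to 894, 231, 71 and 120, and to 204 with a pseudocount of 0.1. Those higher in TGFβR-CA went from 92 to 361, 30, 6 and 24, and to 36 with 0.1, and those lower from 205 to 469, 106, 25 and 44, and to 65. *Dusp5* was called higher in TGFβR-KO in all of these settings. Among the listed genes, 8 were higher in TGFβR-KO and 4 at a ratio of 2, and 4 were lower, but 7 with no minimum, 2 with a pseudocount of 0.5 and 1 at a ratio of 2. In TGFβR-CA 2 were higher, but 5 with no minimum, 1 with at least 500 UMIs, a pseudocount of 0.1 or a ratio of 2, and 0 with a pseudocount of 0.5, and 1 was lower, but 2 with no minimum and 0 at a ratio of 2. The cause of these moves was not tested. No paired analysis was possible because the cells of TGFβR-WT are not tied to replicate numbers and each mutant has 1 sample. The limits are that 1 sample stands for each mutant, that raw depth is unknown, and that *Dusp4* and the smaller groups rest on few UMIs.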
